A study of Mus musculus with 6 samples.

Results

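The AP-1 and Egr immediate early genes examined here are 10 genes, Fos, Fosb, Fosl1, Fosl2, Jun, Junb, Jund, Egr1, Egr2 and Egr3. They were chosen by their symbol in a deposited gene table of 23358 entries, each had 1 entry, and all 10 were among the 16280 entries that passed a filter on low counts. RNA was sequenced from chondrocytes of mice at post-natal day 5, from a strain given as C57BL/6 mixed, taken from the femoral head, the femoral condyles and the tibial plateau. The cells were grown at high density as micromasses, with insulin, transferrin, selenium, ascorbic acid and β-glycerol phosphate in the medium, so that they lay down and later mineralise a matrix. Ezh2-deficient cells, whose library titles name a conditional knockout, were set against wildtype cells, and each genotype gave 1 library at days 3, 7 and 14, which makes 6 libraries. The Cre driver, the efficiency of the deletion and how many animals went into a library are not given in the sources used here.

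AP-1 is a pair of bZIP proteins that grip DNA with a basic region and hold each other through a leucine zipper. Fos proteins need a Jun partner, whereas Jun proteins can also pair with each other, and the pair binds the sequence TGANTCA and, with CREB and ATF relatives, longer variants of it. Egr proteins are zinc finger factors that bind GC-rich sites. Several of these genes are transcribed within minutes of serum, growth factors, stretch or cell damage, through SRF and CREB proteins already present, and their RNAs are short-lived. In the mouse skeleton Fos is needed to form osteoclasts, raised Fosl1 or a short form of Fosb thickens bone, and Fosl2 and Junb act in cells that make cartilage and bone. Ezh2 places methyl groups on lysine 27 of histone H3, a mark of Polycomb silencing.

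Ezh2 itself was 14.7, 23.0 and 17.6 counts per 1000000 (CPM) at days 3, 7 and 14 in Ezh2-deficient libraries, against 24.7, 40.2 and 27.9 CPM in wildtype libraries (log2 difference -0.74 ± 0.08 SE, adjusted p = 0.0729 by edgeR). Libraries held from 51985214 to 79323302 counts, and the Ezh2-deficient library of each day was the deeper, by ratios of 1.13, 1.10 and 1.10. All 10 chondrocyte markers examined were detected in every library, and their summed level was 127880.2, 52666 and 24693 CPM at days 3, 7 and 14 in Ezh2-deficient libraries, against 131845, 75680.4 and 43157 CPM in wildtype libraries. CPM here is scaled by trimmed mean factors, and RPKM, used only to compare genes of different length, is the authors' deposited value.

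The promoters of 4 genes that were higher at day 14 than at day 3, as given below, are shown because immediate early genes are classed by the elements near their starts. Each is the 250 bases before a RefSeq start, from the GRCm38.p6 build, 5′ to 3′ on the gene's own strand. Capitals mark the cyclic AMP response element core TGACG or its reverse complement, the TATA box TATAAA, the Egr site GCGNGGGCG and the CArG box that SRF binds.
Fos: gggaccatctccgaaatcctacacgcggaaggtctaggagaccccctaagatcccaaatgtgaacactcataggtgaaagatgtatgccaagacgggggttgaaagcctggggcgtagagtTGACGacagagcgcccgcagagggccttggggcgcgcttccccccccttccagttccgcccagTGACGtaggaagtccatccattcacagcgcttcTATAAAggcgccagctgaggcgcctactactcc
Fosl2: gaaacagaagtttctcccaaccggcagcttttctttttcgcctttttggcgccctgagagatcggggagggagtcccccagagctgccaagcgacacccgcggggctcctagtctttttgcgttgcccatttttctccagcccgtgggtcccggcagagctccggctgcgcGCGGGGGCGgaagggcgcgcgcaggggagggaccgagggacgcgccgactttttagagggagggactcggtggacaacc
Junb: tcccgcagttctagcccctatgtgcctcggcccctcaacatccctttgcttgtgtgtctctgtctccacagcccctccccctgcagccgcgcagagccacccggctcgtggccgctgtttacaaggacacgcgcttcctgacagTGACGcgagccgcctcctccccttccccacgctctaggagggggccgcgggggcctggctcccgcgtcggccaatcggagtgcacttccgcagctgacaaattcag
Egr2: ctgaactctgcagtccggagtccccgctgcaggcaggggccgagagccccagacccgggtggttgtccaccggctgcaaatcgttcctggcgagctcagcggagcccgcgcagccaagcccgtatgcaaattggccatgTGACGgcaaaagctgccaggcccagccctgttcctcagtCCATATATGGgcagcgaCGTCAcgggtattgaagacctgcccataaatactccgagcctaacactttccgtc
The Fos window lies at chr12:85473640-85473889 on the plus strand, the Fosl2 window at chr5:32136222-32136471 on the plus strand, the Junb window at chr8:84978749-84978998 on the minus strand and the Egr2 window at chr10:67537619-67537868 on the plus strand. Only these 250 bases were searched, so a motif absent from a window may still lie farther upstream, in Fos or any other gene. Within its window Fos held the cyclic AMP core at positions -129 to -125 and -66 to -62 from its start and a TATA box at -33 to -28. Egr2 held a CArG box at -72 to -63, between cyclic AMP cores at -111 to -107 and, on the other strand, -55 to -51. Junb held the core once, at -106 to -102, and Fosl2 held an Egr site at -79 to -71. Of 32851 promoter windows of this length, 17.8% held the 5-letter core on either strand, 1.47% a CArG box, 7.59% a TATA box on the gene's strand and 4.70% an Egr site. The full element TGACGTCA, which contains the core, was in 1.55% and the AP-1 site TGANTCA in 6.75%, both strands searched, and neither was in the windows shown. Promoter windows were matched for 7 of the 10 genes. Fosb held a core and an Egr site, and the windows of Jun and Jund held none of these motifs. Only exact matches were counted, and the Jun window held TGACATCA, a single letter off the full element TGACGTCA. Egr2 had 5 overlapping or neighbouring windows, of which the one shown ends at the start in the deposited table. For Junb the annotated start differs between sources, the deposited entry ending at 84978748 and GENCODE at 84978718, and the window shown follows the first. The start also differs for Fosl2 (32136472 as deposited, 32135801 in GENCODE) and for Jund (70697739 as deposited, 70698949 in GENCODE). The windows of both follow the deposited start, and the bases before those GENCODE starts were not searched. For Egr2 the start is 67537869 as deposited and 67535475 in GENCODE. The Fos window ends just before the GENCODE start, 85473890, whereas the deposited start is 85473901.

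The levels of the 10 genes differed widely within a library. By the median of the authors' RPKM over the 6 libraries the order was Jund (26.1), Fosl2 (22.2), Egr1 (18.7), Jun (12.7), Junb (10.1), Fos (4.04), Egr3 (1.89), Egr2 (1.38), Fosl1 (0.781) and Fosb (0.472). The range of each gene over the libraries overlapped that of the next in this order, so neighbours are not set apart by their spread over libraries. Within a library, Junb was above Fos, Jun was above Junb in 5 of 6 and Fosl1 was above Fosb in 6 of 6. The lowest levels rest on few reads, and Fosl1 had 26 to 102 fragments per library.

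Fosl2 carried most of the Fos family transcript. It made up 78.8%, 83.2% and 70.8% of the family's summed RPKM at days 3, 7 and 14 in Ezh2-deficient libraries, against 84.0%, 75.6% and 80.5% in wildtype libraries. Jund made up 64.7%, 47.2% and 49.7% of the Jun family in Ezh2-deficient libraries, against 70.4%, 45.8% and 43.2% in wildtype libraries. Junb made up 12.3%, 19.4% and 34.3% of the Jun family in Ezh2-deficient libraries, against 10.0%, 21.0% and 28.2% in wildtype libraries, and Jun made up 23.0%, 33.4% and 16.0% in Ezh2-deficient libraries, against 19.6%, 33.2% and 28.5% in wildtype libraries. Egr1 was between 83.1% and 88.4% of the Egr family in every library. Jun family RPKM exceeded Fos family RPKM by ratios of 2.67, 1.67 and 2.03 in Ezh2-deficient libraries, against 3.40, 1.88 and 1.5 in wildtype libraries. The largest share of each family was thus held by 1 gene in every library, and at day 14 the Jund share was lower and the Junb share higher than at day 3 in both genotypes.

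**Figure D1:**
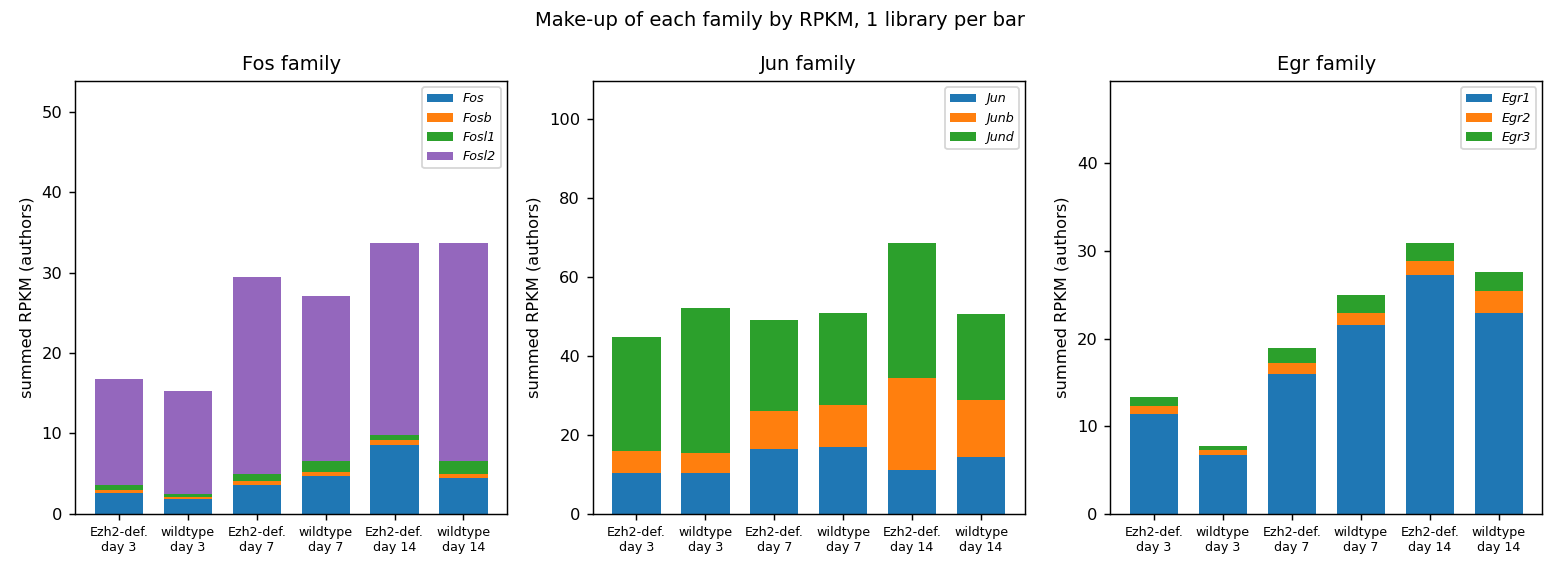
Stacked bars of the authors' RPKM for the members of the Fos, Jun and Egr families, 1 library per bar, with the Ezh2-deficient library left of the wildtype library on each day. Fosl2 and Egr1 fill most of their families' bars, and Junb fills 34.3% of the Jun family bar of the Ezh2-deficient library and 28.2% of that of the wildtype library at day 14.

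Between day 3 and day 14 of culture 6 of the 10 genes rose, and none fell. In one model of all 6 libraries, in which the genotypes stand in for replicates of a day, Fos, Fosl2, Junb, Egr1, Egr2 and Egr3 passed (edgeR's quasi-likelihood test with Benjamini-Hochberg adjustment over 16280 genes, threshold 0.05). Over all genes 23.2% were called higher, 22.4% lower and 45.5% in either direction, and 26.9% were higher and 27% lower at an unadjusted p below the threshold. The median log2 fold change was 1.27 over the 10 genes and -0.02 over all genes tested. Nothing in the labels says that these libraries come from separate cultures or animals, so the p-values measure only the spread between these libraries. In bulk RNA fewer cells of a type and less RNA per cell cannot be told apart.

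Fos, the founding member and the partner that brings strong transactivation to AP-1 (chromosome 12, 85473901 to 85477270, mm10), had 7.02, 8.64 and 23.3 CPM at days 3, 7 and 14 in Ezh2-deficient libraries, against 5.00, 11.2 and 11.4 CPM in wildtype libraries. Both day 14 libraries were above both day 3 libraries, and the Ezh2-deficient library of day 14 stood above the other 5. The log2 fold change of day 14 over day 3 was 1.5 ± 0.34 (SE; edgeR adjusted p = 0.0165). Fosl2, also called Fra-2 (chromosome 5, 32136472 to 32157839), had 102, 164 and 182 CPM in Ezh2-deficient libraries, against 97.2, 138 and 194 CPM in wildtype libraries. Its day 3, day 7 and day 14 libraries did not overlap, and it was 0.92 ± 0.11 higher on the log2 scale at day 14 (adjusted p = 0.00197 by edgeR).

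Fosb (chromosome 7, 19302696 to 19310045), whose short splice form thickens bone in mice when raised, had 2.04, 2.03 and 2.81 CPM in Ezh2-deficient libraries, against 1.12, 2.04 and 2.24 CPM in wildtype libraries. The wildtype library of day 3 was the lowest, and the others lay close together, with overlapping counting intervals. Its fold change did not pass (0.70 ± 0.30 on the log2 scale, adjusted p = 0.111 by edgeR). Fosl1, also called Fra-1 (chromosome 19, 5447698 to 5455938), had 1.32, 1.63 and 1.61 CPM in Ezh2-deficient libraries, against 0.789, 2.89 and 3.34 CPM in wildtype libraries. It was level over the days in Ezh2-deficient libraries and 4.24-fold apart between days 14 and 3 in wildtype libraries (95% counting interval 2.71 to 6.84). The shared fold change did not pass (1.12 ± 0.49, adjusted p = 0.116 by edgeR). Fosl1 shares exon bases with Ccdc85b on the opposite strand, and since it is not stated whether counting used strand, reads of the pair cannot be told apart.

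Junb (chromosome 8, 84976909 to 84978748), a Jun protein with weaker transactivation that also restrains the cell cycle, had 13.3, 19.9 and 56.4 CPM in Ezh2-deficient libraries, against 12.3, 22.6 and 32.1 CPM in wildtype libraries. The libraries of the 3 days did not overlap, and the Ezh2-deficient library of day 14 was the highest. Its log2 fold change of day 14 over day 3 was 1.76 ± 0.24 (adjusted p = 0.00343 by edgeR). Jun (chromosome 4, 95049036 to 95052222), the Jun protein that drives proliferation, had 43.1, 59.6 and 45.6 CPM in Ezh2-deficient libraries, against 41.9, 61.7 and 56.3 CPM in wildtype libraries. It was highest at day 7 in both genotypes, and it overlaps the antisense transcript Junos. Jund (chromosome 8, 70697739 to 70700616), the Jun protein made steadily in resting cells, had 109, 76.0 and 128 CPM in Ezh2-deficient libraries, against 136, 77 and 76.9 CPM in wildtype libraries. Its 2 day 7 libraries were alike and low, and at day 14 the genotypes parted. Neither Jun (0.25 ± 0.11, adjusted p = 0.111) nor Jund (-0.28 ± 0.24, adjusted p = 0.383) passed for day 14 over day 3 in edgeR. Jund also overlaps an antisense transcript, Gm11175.

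Egr1 (chromosome 18, 34861207 to 34864956), the most abundant Egr factor here, had 45.9, 55.5 and 109 CPM in Ezh2-deficient libraries, against 26.6, 75.9 and 86.1 CPM in wildtype libraries. Day 3 was the lowest day in both genotypes. Egr2 (chromosome 10, 67537869 to 67542188), known for Schwann cell myelination and also for restraining osteoclasts, had 3.36, 4.50 and 5.88 CPM in Ezh2-deficient libraries, against 2.03, 4.88 and 9.0 CPM in wildtype libraries. Egr3 (chromosome 14, 70077445 to 70080157), which is needed for muscle spindles, had 1.99, 2.77 and 3.80 CPM in Ezh2-deficient libraries, against 0.91, 3.35 and 3.76 CPM in wildtype libraries. In all 3 genes the wildtype library of day 3 was the lowest of the 6. The log2 fold changes of day 14 over day 3 were nearly equal, 1.44 ± 0.28 for Egr1, 1.46 ± 0.34 for Egr2 and 1.41 ± 0.38 for Egr3 (edgeR adjusted p = 0.0105, 0.0197 and 0.0302).

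**Figure D2:**
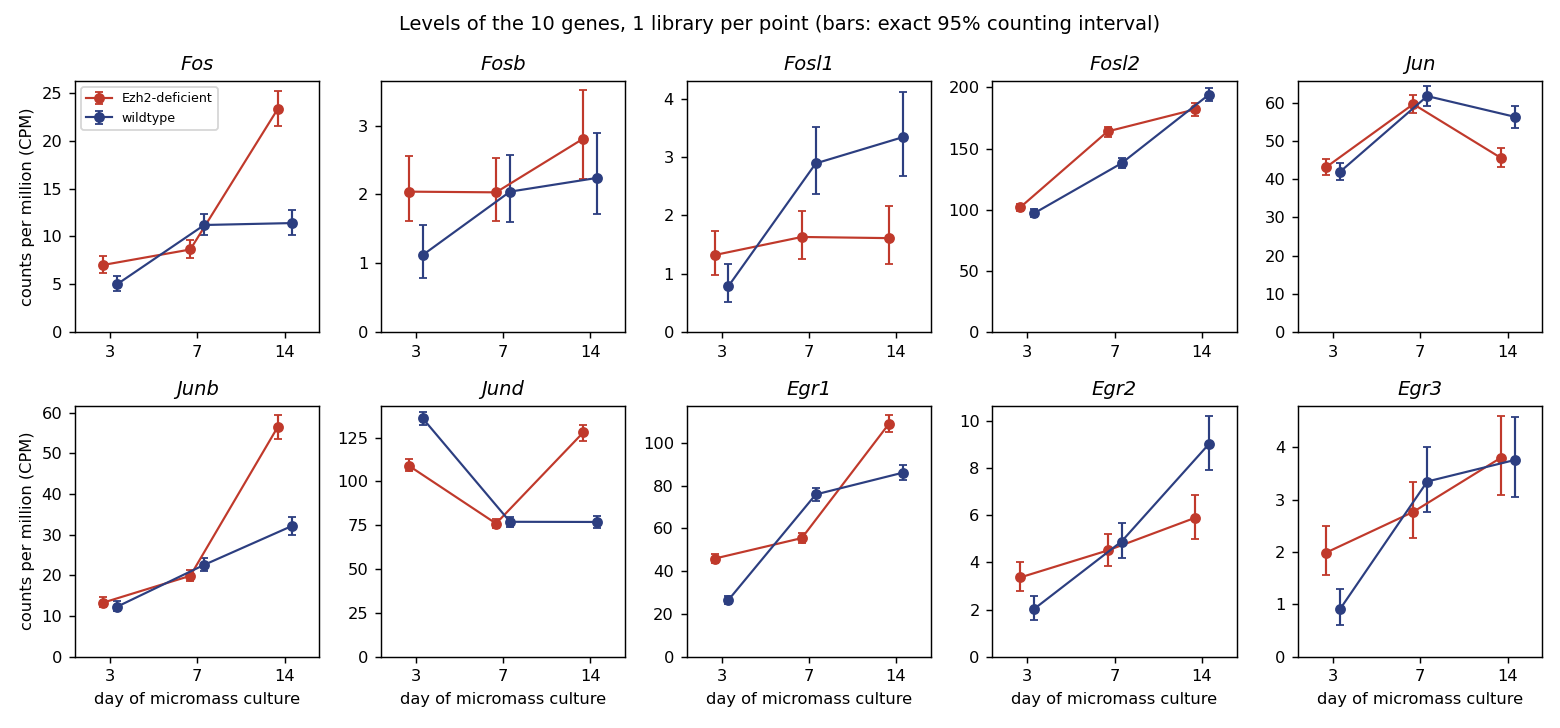
CPM of each of the 10 genes (linear axes from 0) against the day of culture, 1 library per point, with the Ezh2-deficient library drawn left of the wildtype library and bars for the exact 95% counting interval. Fos and Junb are highest in the Ezh2-deficient library of day 14 (23.3 and 56.4 CPM), and Jund is level in the day 7 libraries, at 76.0 CPM in the Ezh2-deficient and 77 CPM in the wildtype library.

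The calls for Fosl2 and Junb held in each of 14 alternatives, and those for Fos, Egr1, Egr2 and Egr3 were lost when a library was left out. Without the Ezh2-deficient library of day 14, Fos was 0.95, Egr1 1.35 and Egr3 1.61 on the log2 scale (edgeR adjusted p = 0.0959, 0.0688 and 0.0885), and Jund was called lower (-0.75, adjusted p = 0.0218). Without the wildtype library of day 14, Egr2 was 1.03 and Egr3 1.27 (adjusted p = 0.0916 and 0.126), and without the wildtype library of day 3, Egr3 was 0.86 (adjusted p = 0.0675). Fosl1 was called only without the Ezh2-deficient library of day 3 (2.03, adjusted p = 0.00478).

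Shorter intervals gave fewer calls. Between days 3 and 7 Fosl2 (0.60 ± 0.11, adjusted p = 0.0111) and Jun (0.51 ± 0.11, adjusted p = 0.0184) rose in edgeR, 2 of the 10 genes, where 19.5% of all genes were called higher, 16.6% lower and 36.1% either way (24.5% and 23.1% at an unadjusted p below 0.05). Egr1 (0.90 ± 0.28, adjusted p = 0.0559), Junb (0.74 ± 0.24, adjusted p = 0.061), Egr3 (1.12 ± 0.38, adjusted p = 0.0705) and Jund (-0.69 ± 0.24, adjusted p = 0.0765) did not pass. DESeq2 called 6 of the 10, Fosl2, Jun, Junb, Egr1 and Egr3 higher and Jund lower, where it called 21.0% of all genes higher and 15.9% lower. With total counts in place of trimmed mean factors 5 of the 10 passed, all higher, where 4316 of 16280 genes were called higher and 1250 lower. Fosl2 (0.49, adjusted p = 0.121) and Jun (0.49, adjusted p = 0.148) were lost without the Ezh2-deficient library of day 7, and Jun also without the wildtype library of day 3 (0.40, adjusted p = 0.0635) or of day 7 (0.56, adjusted p = 0.11). Egr1 and Fos passed without the Ezh2-deficient library of day 7. Without the Ezh2-deficient library of day 3 the log2 change was 1.93 for Fosl1 and 1.81 for Egr3. Without the wildtype library of day 3 it was 0.24 for Fosl1 and 0.55 for Egr3. Between days 7 and 14 none of the 10 passed in edgeR, where 3.38% of all genes were called higher, 2.29% lower and 5.66% either way. Fosl2 and Junb, 2 of the 10, were higher at an unadjusted p below 0.05, as were 11.8% of all genes, with 11.6% lower. Junb came nearest (1.02 ± 0.24, adjusted p = 0.0749; DESeq2 1.03, adjusted p = 0.00168, where 6.53% of all genes were called higher by DESeq2). In edgeR Junb passed without either day 3 library, and Junb and Jund passed without the wildtype library of day 14. limma-voom called none of the 10 between days 7 and 14, and for the other day comparisons it called the genes that edgeR called.

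**Figure D3:**
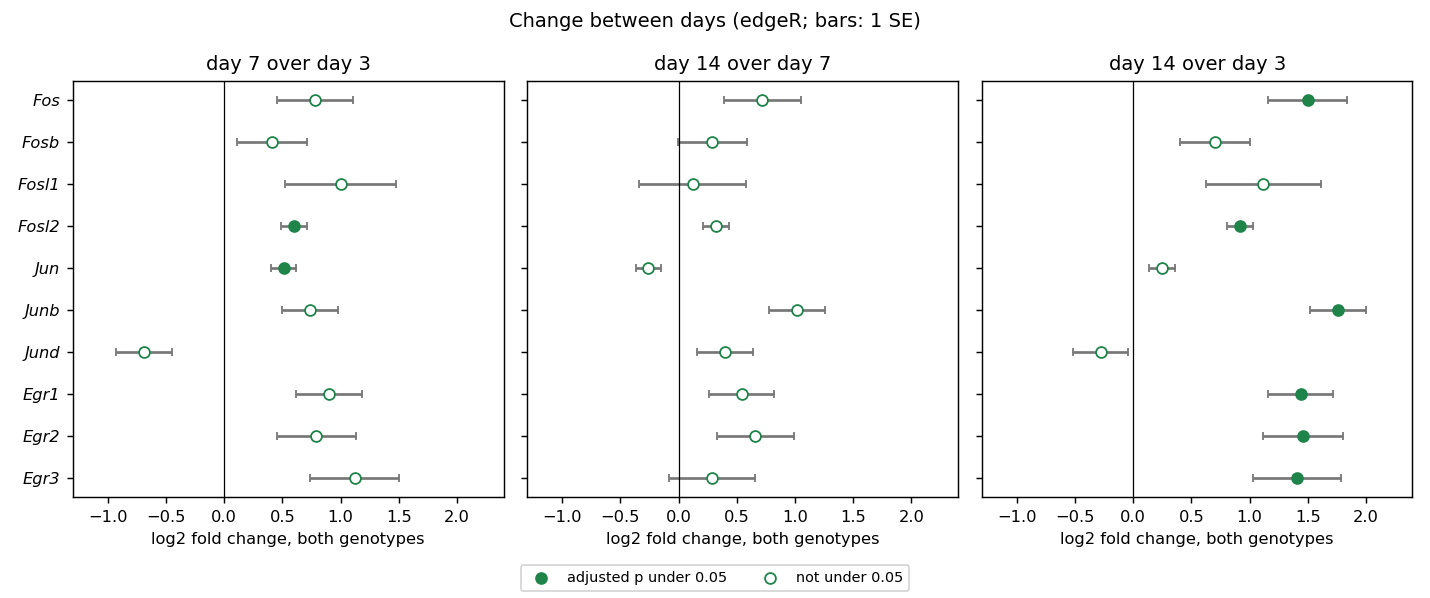
Log2 fold changes between days from the edgeR model of all 6 libraries (points, bars of 1 SE, filled where the adjusted p is under 0.05) for each of the 10 genes. In the panel for day 14 over day 3 the filled points are Fos, Fosl2, Junb, Egr1, Egr2 and Egr3, between 0.92 and 1.76, and Jund lies left of 0 in that panel and in the panel for day 7 over day 3.

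Over the 3 days together none of the 10 genes passed a test of Ezh2-deficient against wildtype libraries. The model had day as a factor, and the 3 days stood in for replicates of a genotype. A genotype difference that changes from day to day thus counts as error in it. In this model 0 of 10 passed in edgeR, 0 in DESeq2, 0 in limma-voom and 0 at an unadjusted p below 0.05 in edgeR. Of all genes 0.0123% were called in either direction by edgeR, 3.73% by DESeq2 and 0.246% by limma-voom, and at the unadjusted threshold 6.82% were higher and 6.33% lower in edgeR. With both day 3 libraries left out, 383 of 15808 genes were higher and 480 lower in edgeR, and 0 of the 10 passed. The log2 differences ran from -0.43 ± 0.39 for Fosl1 (adjusted p = 0.683) to 0.39 ± 0.25 for Fosb (adjusted p = 0.552), with 0.38 ± 0.27 for Fos and 0.22 ± 0.23 for Egr1. A p that misses the threshold does not show equal levels.

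On single days each genotype had 1 library, and ratios of the 2 libraries carry a counting interval but no test. At day 3 the Ezh2-deficient library was higher in 9 of the 10 genes, all but Jund, with a median log2 ratio of 0.59, where 49.7% of all genes tested had a ratio above 1. Egr1 was 1.72-fold higher (95% counting interval 1.59 to 1.87), Fosb 1.82-fold (1.21 to 2.78), Fosl1 1.67-fold (1.02 to 2.80), Egr2 1.65-fold (1.22 to 2.26) and Fos 1.40-fold (1.15 to 1.72). Egr3, 2.19-fold higher (1.41 to 3.46), was the only 1 of the 10 past 2-fold, a mark that 1.73% of genes passed upward and 0.54% downward. Fosl2 (1.05, 1.0 to 1.1), Jun (1.03, 0.956 to 1.11) and Junb (1.08, 0.946 to 1.24) had intervals that reached 1. Jund was 0.805 of wildtype (0.771 to 0.840). Of 5 adipocyte and 5 smooth muscle markers, 4 each were at least 2-fold higher in the Ezh2-deficient library of day 3. The adipocyte markers summed to 71.8 CPM in the Ezh2-deficient and 12.5 CPM in the wildtype library, and the smooth muscle markers to 170.0 CPM in the Ezh2-deficient and 60.4 CPM in the wildtype library. Their part in the day 3 ratios of the 10 genes was not tested.

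At day 7 the Ezh2-deficient library was lower in 9 of the 10 genes, all but Fosl2, or in 7 with either other scaling, under which Fosb and Jund lay just above 1. The median log2 ratio was -0.15, and 49.0% of all genes had a ratio above 1. Egr1 was 0.731 of wildtype (0.691 to 0.774), Fos 0.769 (0.664 to 0.892), Fosl1 0.562 (0.405 to 0.776) and Junb 0.882 (0.799 to 0.975). The counting intervals of Fosb, Jun, Jund, Egr2 and Egr3 included 1, and Fosl2 was 1.19-fold higher (1.14 to 1.23). None of the 10 was 2-fold apart at day 7, where 2.48% of genes were higher and 1.65% lower by that mark.

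At day 14 the genes split. Fos was 2.04-fold higher (1.78 to 2.35) in the Ezh2-deficient library, Junb 1.75-fold (1.61 to 1.91), Jund 1.66-fold (1.57 to 1.75) and Egr1 1.27-fold (1.2 to 1.34). Fosl1 was 0.480 of wildtype (0.327 to 0.697), Egr2 0.653 (0.531 to 0.801) and Jun 0.810 (0.751 to 0.874). Fos and Fosl1 were past 2-fold, in opposite directions, where 2.49% of genes were higher and 3.22% lower by that mark. Scaled by total counts, Fos fell short of 2-fold and Egr3, at 1.01, lay below 1. The single library of each group is the limit here, since the counting intervals leave out differences between cultures.

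**Figure D4:**
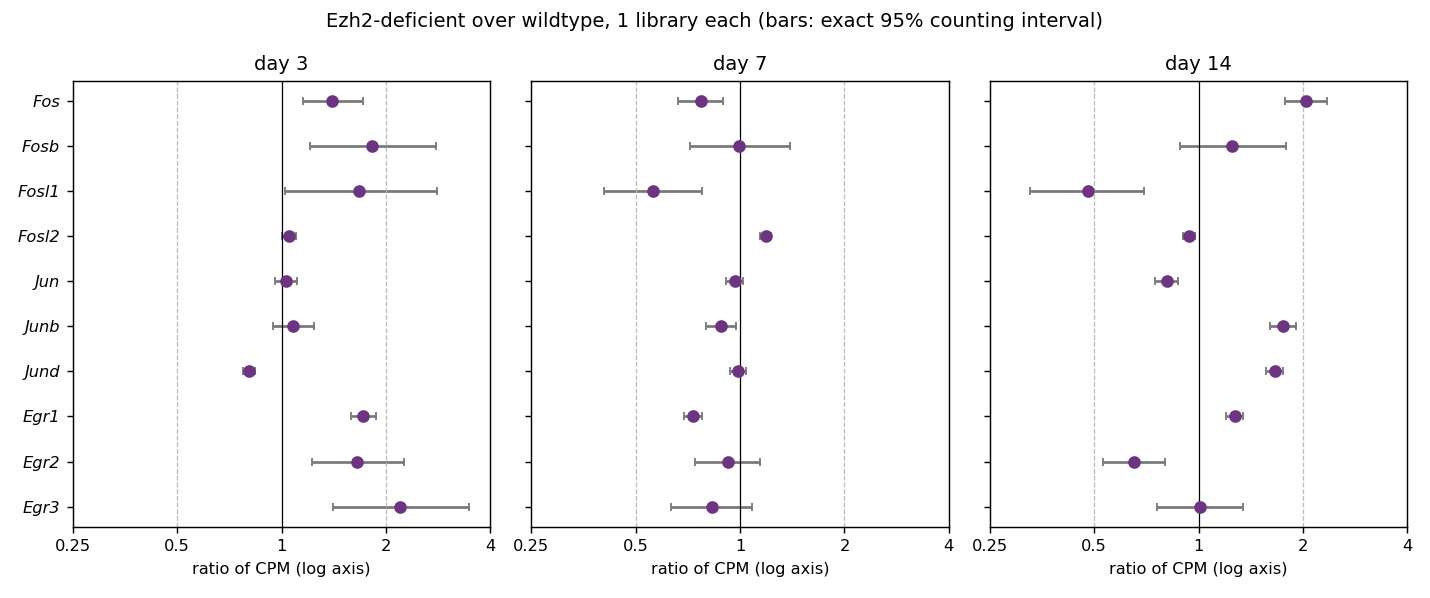
Ratio of CPM, Ezh2-deficient over wildtype, for each gene on days 3, 7 and 14 (log axis, 1 library a group, bars for the exact 95% counting interval, dashed lines at 2-fold). Most points lie right of 1 at day 3 and left of 1 at day 7, and at day 14 Fos, Junb and Jund (2.04, 1.75 and 1.66) lie apart from Fosl1 and Egr2 (0.480 and 0.653).

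Whether the genotype difference moved with day was tested as its change per doubling of day, with 1 residual degree of freedom. None of the 10 passed in edgeR, where 0.0614% of all genes were called upward, 0.553% downward and 0.614% either way. At an unadjusted p below 0.05 were 3 of the 10, where 5.01% of all genes moved upward and 8.3% downward. Jund moved upward by 0.46 ± 0.09 per doubling (adjusted p = 0.106), and Egr2 (-0.60 ± 0.15, adjusted p = 0.189) and Fosl1 (-0.82 ± 0.26, adjusted p = 0.283) moved the other way. DESeq2 called Jund (0.47, adjusted p = 0.0329), 1 of 10 against 2.10% of all genes, and limma-voom called none. A difference that changes sign more than once, as that of Fos and Egr1 did, is not what a straight trend measures, and a full interaction of genotype with day leaves no residual degrees of freedom.

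For Fos and Egr1 the single libraries placed most of the increase in different intervals in the genotypes. In wildtype libraries Fos was 2.24-fold higher at day 7 than at day 3 (1.87 to 2.71) and 1.02-fold at day 14 over day 7 (0.873 to 1.19), and Egr1 2.85-fold (2.64 to 3.08) and then 1.13-fold (1.07 to 1.2). In Ezh2-deficient libraries Fos was 1.23-fold higher at day 7 (1.04 to 1.45) and 2.70-fold at day 14 over day 7 (2.36 to 3.09), and Egr1 1.21-fold (1.13 to 1.29) and then 1.97-fold (1.86 to 2.08). Over day 7 against day 3, 0 of the 10 genes were at least 2-fold higher in Ezh2-deficient libraries and 5 (Fos, Fosl1, Egr1, Egr2 and Egr3) in wildtype libraries, where 13.4% and 15.7% of genes were. With total counts the wildtype count was 7, with Fosb and Junb added. Over day 14 against day 7, 2 of the 10 (Fos and Junb) were in Ezh2-deficient libraries and 0 in wildtype libraries, where 5.36% and 3.71% of genes were. Over day 14 against day 3, 3 of the 10 (Fos, Junb and Egr1) were in Ezh2-deficient libraries and 7 (all but Fosb, Jun and Jund) in wildtype libraries, where 16.4% and 17.7% of genes were. None of the 10 was 2-fold lower in any of these intervals, where 5.56%, 5.62% and 9.31% of genes were in Ezh2-deficient libraries (day 7 over 3, 14 over 7 and 14 over 3) and 5.58%, 3.0% and 8.63% in wildtype libraries. These comparisons share libraries, and the difference in timing between the genotypes was not tested. The wildtype library of day 3 was the lowest for all of the 10 genes but Jund. It enters both the wildtype ratios to day 3 and the genotype ratios of day 3, so these are not separate results.

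Courses were compared by the root mean square difference of log2 CPM, each gene centred over the 6 libraries. The candidates were 10451 genes with a mean of at least 5 CPM, with the members and predicted symbols (Gm and Rik) left out. Among them the courses nearest to that of Fos were those of Cpa6 (0.190), Rnf19a (0.197), Peg13 (0.200), X99384 (0.215) and Mxd1 (0.216). Junb was nearer to Fos than any of them (0.187), Egr1 came next to them (0.228), and Jund was the member farthest from it (0.802). Cryab (0.170), Ap1s2 (0.173), X99384 (0.177), Shank3 (0.178) and Peg13 (0.182) were nearest to Egr1, and Egr3 was the member nearest to it (0.183). Rnf19a, for example, had 31.9, 42.4 and 105 CPM in Ezh2-deficient libraries, against 29.0, 44.3 and 66.1 CPM in wildtype libraries. This likeness is over 6 libraries that share the course of the culture.

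Other immediate early genes moved in both directions. Of 45 on a list, 23 were called higher and 7 lower at day 14 than at day 3 by edgeR, with a median log2 fold change of 0.75, against 23.2% and 22.4% of all genes and a median of -0.02. Nr4a1, a nuclear receptor induced by many stimuli, was 2.23 ± 0.24 higher (adjusted p = 0.00154), Dusp4, a phosphatase that switches off MAP kinases, 2.30 ± 0.22 (0.000992), and Dusp6, another such phosphatase, 1.75 ± 0.18 (0.0013). Zfp36, which speeds the decay of immediate early RNAs, rose by 1.17 ± 0.24 (adjusted p = 0.0123), and Klf4 by 1.13 ± 0.22 (0.0108). Ppp1r15a, a stress gene that restores translation, fell by 2.36 on the log2 scale (adjusted p = 0.00115), Atf3 fell by 1.10 (0.000767) and Myc fell by 0.86 (0.00472). Between genotypes none of the 45 passed in edgeR, and at an unadjusted p below 0.05 there were 9 with higher and 3 with lower levels in Ezh2-deficient libraries. By that threshold 6.82% of all genes were higher and 6.33% lower. Their median log2 ratios of Ezh2-deficient over wildtype libraries on days 3, 7 and 14 were 0.14, 0.06 and 0.24.

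The Egr corepressors Nab1 and Nab2, which restrain Egr factors, also rose between days 3 and 14. Nab2 had 36.5, 72.1 and 62.4 CPM in Ezh2-deficient libraries, against 36.9, 75.4 and 74.3 CPM in wildtype libraries (day 14 over day 3, 0.89 ± 0.09, edgeR adjusted p = 0.00139), and Nab1 was 0.80 ± 0.09 higher (0.00192). Both were already called at day 7 over day 3 (Nab2 1.01 ± 0.09, adjusted p = 0.00153, and Nab1 0.60 ± 0.09, 0.0071, by edgeR). No Egr gene passed there in edgeR, with changes of like size but wider SE. These were 0.90 ± 0.28 for Egr1, 0.79 ± 0.34 for Egr2 and 1.12 ± 0.38 for Egr3. DESeq2 called Egr1 and Egr3 (adjusted p = 0.00522 and 0.0244), so the calls do not set an order of rise. Egr4 was below the filter. Of 14 other bZIP genes whose products pair with Fos or Jun proteins or are close kin of their partners, 3 were called higher and 5 lower at day 14 than at day 3 by edgeR, with a median of -0.06, where 23.2% of all genes were higher and 22.4% lower. Among them Maf (1.86 ± 0.10, adjusted p = 0.000213) and Maff (1.74 ± 0.23, 0.00274) rose, and Atf4 (-1.47 ± 0.21, 0.00402), Atf3, which is on both lists, Batf3 (-1.01 ± 0.31, 0.0444), Jdp2 (-0.46 ± 0.14, 0.0401) and Mafg (-0.36 ± 0.11, 0.0418) fell. Of 19 kinases and factors upstream of these promoters, 7 were higher and 2 lower, all by less than 1 on the log2 scale, against the same shares of all genes. Among them Mapk3, which encodes ERK1, was 0.68 ± 0.08 higher (adjusted p = 0.00206) and Elk3, an SRF partner, 0.76 ± 0.09 higher (0.00179).

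Genes known as AP-1 targets in skeletal or connective tissue were called higher in 15 of 21 tested and lower in 3 at day 14 over day 3 (edgeR), where 23.2% of all genes were higher and 22.4% lower. Their median log2 fold change was 1.91, against -0.02 over all genes. Like the other lists, this one was chosen with earlier results of these data known, so the counts are a description. Timp1, an inhibitor of metalloproteinases, was 2.29 ± 0.11 higher (adjusted p = 0.000177), Mmp13, a collagenase with a known AP-1 site, 2.31 ± 0.33 (0.00362), and Ptgs2, which makes prostaglandins, 2.26 ± 0.21 (0.000893). Mmp9 fell by 2.84 (adjusted p = 0.00077), Hbegf fell by 1.41 (0.0227) and Hmox1 fell by 1.09 (0.00114). None of the 21 passed between genotypes in edgeR, and at an unadjusted p below 0.05 the Ezh2-deficient level was higher in 2 and lower in 3, where 6.82% of all genes were higher and 6.33% lower. Ibsp, 1 of the 21, is also among the osteoblast markers used below. Plau, the urokinase gene, was the 1 target whose genotype difference moved with day (-0.75 ± 0.07 per doubling, adjusted p = 0.044 by edgeR). At an unadjusted p below 0.05 the difference moved downward in 9 of the 21 and upward in 0, where 8.3% and 5.01% of all genes did. It had 16.9, 44.0 and 29.8 CPM in Ezh2-deficient libraries, against 12.1, 62.2 and 67.7 CPM in wildtype libraries. With counts halved, or with a minimum count of 50, no gene of the table passed this test.

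**Figure D5:**
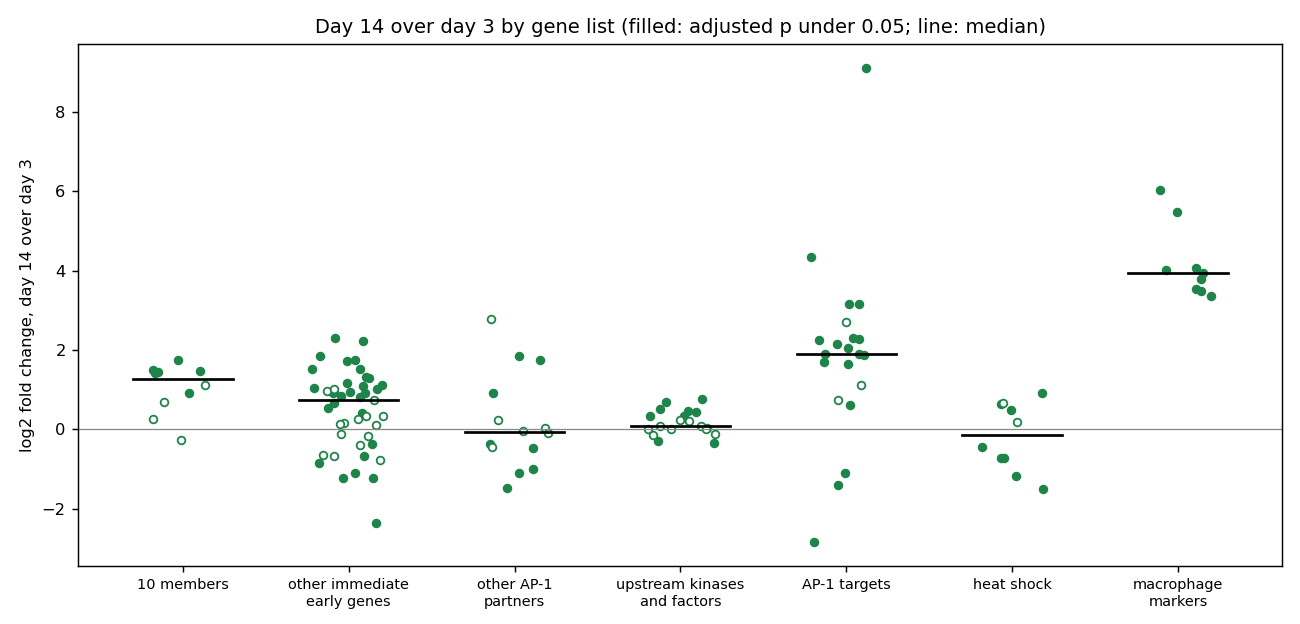
Log2 fold change of day 14 over day 3 for the 10 members and 6 other lists, 1 point per gene (filled where the edgeR adjusted p is under 0.05, line at the median). The medians are 1.27 for the members, 0.75 for other immediate early genes, 1.91 for AP-1 targets and 3.95 for macrophage markers, and those of the heat shock genes, the other AP-1 partners and the upstream kinases lie near 0.

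RNA of other cell types' markers changed over the same days. All 9 macrophage markers examined were called higher at day 14 than at day 3 by edgeR, where 23.2% of all genes were higher and 22.4% lower. Their summed level was 62.7, 603 and 1235 CPM at days 3, 7 and 14 in Ezh2-deficient libraries, against 70.1, 676 and 1084 CPM in wildtype libraries, and none was at 0. All 8 osteoblast markers were called higher, with sums of 1403, 8346 and 95926 CPM in Ezh2-deficient libraries, against 861, 6845 and 44545 CPM in wildtype libraries. Of 10 chondrocyte markers 9 were lower and Col10a1 higher. Their part in the levels of the 10 genes was not tested. Of 10 heat shock genes, which respond to handling, 3 were called higher (Hspa1b, Hspb1 and Dnajb1) and 5 lower (Hspa8, Hsph1, Hsp90aa1, Hspd1 and Hspe1), with a median of -0.13, against the same shares of all genes. Hspa1b had 3.12, 6.25 and 5.36 CPM in Ezh2-deficient libraries, against 3.15, 7.01 and 6.53 CPM in wildtype libraries. The part of handling in the levels of the 10 genes was not tested.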

How the data were processed

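The deposited table held, per library, raw read counts per gene and the authors' RPKM values, per the file headers, with a coding length; the RPKM values equal count over that length and a constant per library. CASAVA 1.9, TopHat 12.0.6, HTSeq and the build mm10 are named in the submitters' processing notes; annotation, strandedness and filters are not given in the sources used here. Columns without a sample numbered 0. Every deposited count was even, so a fragment was taken as 2 counts; a floor of 3 fragments was 0.0763 to 0.114 CPM, and intervals cover counting error only.

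Genes were kept by filterByExpr (minimum count 10, day as group). CPM used TMM factors (0.935 to 1.09). Tests were edgeR 4.0.16 quasi-likelihood F tests in R 4.3.3, two-sided, Benjamini-Hochberg adjusted, with genotype and day as terms (2 residual degrees of freedom) or with genotype times centred log2 day added (1 left). SE was taken as |log2 fold change| over √F. Alternatives used DESeq2 1.42.0 and limma 3.58.1 (voom), other factors, filters, halved counts, robust dispersion and libraries left out. Single-library ratios took exact binomial (Clopper-Pearson) intervals; the 2-fold mark also needed 1 CPM, a prior count of 2 and an interval that leaves out 1. Tested on simulated data, the model recovered 79.0% (genotype) and 69.0% (day 14 over day 3) of genes changed by 1 on the log2 scale, and 97.0% and 93.9% of those changed by 2. It also called 13 (genotype) and 3 (day 14 over day 3) unchanged genes. The simulated counts followed the dispersion trend alone, without extra spread of single genes and without genotype differences that change with day. For day 14 over day 3 the simulated days were otherwise level. Of 16001 genes 100 were changed by 1 and 99 by 2, whereas 45.5% of genes were called in the data. These shares therefore need not hold for the 6 libraries. All members are named; other genes named from a list passed, unless said otherwise, and those likest Fos and Egr1 are the nearest 5. Members and lists were chosen with earlier results of these data known. Promoter windows and starts are RefSeq's; loci are those of the deposited table, and overlapping genes come from GENCODE M21, also on mm10.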

Additional observations from a re-analysis of the deposited data

How the results depend on the processing

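None of the 10 genes passed between genotypes under any of 11 alternatives, and 6 passed for day 14 over day 3 under each of the 8 that kept all libraries. For day 14 over day 3, leaving out a library gave 4 to 7 called genes. For day 7 over day 3, against 2 called, DESeq2 called 6 and total counts 5, and leaving out a library gave 1 to 7. For day 14 over day 7, against 0 called, DESeq2 called 1 and leaving out a library gave 0 to 2. For the genotype difference by day DESeq2 called 1, against 0. The cause was not tested. The number of all genes called also changed from fit to fit, so these counts of the 10 genes are a description. Total counts put the median of all genes at 0.19 against -0.02 (log2, day 7 over day 3; 4316 higher and 1250 lower, against 3172 and 2709) and at -0.16 against -0.01 (day 14 over day 7; 383 and 482, against 550 and 372).

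Between genotypes, leaving out a day's pair turned the log2 difference of 7 genes, none of them called, with ranges of -0.0166 to 0.16 for Fosl2, -0.18 to 0.000714 for Jun, -0.0301 to 0.46 for Junb, -0.16 to 0.36 for Jund, -0.0537 to 0.56 for Egr1, -0.37 to 0.30 for Egr2 (0.0326 without day 7) and -0.13 to 0.54 for Egr3. For day 14 over day 7, Fosl1 was -0.0139 with total counts, and leaving out a library gave -0.42 to 0.53 for Fosl1 (-0.16 without the Ezh2-deficient library of day 7), -0.0781 to 0.83 for Jund and -0.0788 to 0.75 for Egr3. For day 14 over day 3, Jund ranged from -0.75 to 0.18 (0.0458 without the wildtype library of day 3). No paired analysis was possible because the labels give no replicate numbers; day, a term of each model, sets the genotypes against each other within a day. Fosb, Fosl1, Egr2 and Egr3 have the fewest fragments and the widest counting intervals.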
